A study of Mus musculus with 88 samples.

Results

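Lung of wild-type mice was set against 8 other tissues of the same animals in a bulk RNA-seq survey of mice with a knockout of Cdh15 (KO) and wild-type mice (WT). The deleted gene codes for M-cadherin, through which muscle precursor cells adhere, and the survey, by its design text, covered both genotypes over many organs. The libraries titled WT lung were taken, 5 of 88 in all. Set against them were the 38 WT libraries of heart, kidney, liver, spleen, soleus, extensor digitorum longus (EDL), gastrocnemius and tibialis, each tissue with equal weight whatever its number of libraries. Each WT tissue came from 5 mice, except kidney and spleen with 4. As a repeat in other animals, 5 KO lung libraries were set against the 40 KO libraries of the same 8 tissues. All mice, WT and KO alike, were males of the strain labelled 100% C57BL/6NTac, 65 to 85 days old and fasted for 18 h. Details of the KO allele are not given in the sources used here. Polyadenylated RNA of whole tissue was measured, so fewer cells of a type and less RNA per cell cannot be told apart.

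The lung exchanges gas across alveoli, air sacs lined by thin alveolar type 1 cells and by cuboidal type 2 cells that make surfactant, a film of lipid and protein that lowers surface tension. Air reaches them through airways lined by club cells, which secrete protective proteins and metabolise inhaled chemicals, and by ciliated cells, which move mucus. A dense capillary bed surrounds the alveoli, with general capillary cells and wide, flat aerocytes. Alveolar macrophages live on the air side and clear surfactant and particles.

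The WT lung libraries held 8.31 to 20.8 M counts (M for mega), KO lung 9.135 to 19.6 M and the other WT tissues 8.21 to 25.1 M. Levels of 1 gene are given in CPM, the gene's count scaled by the normalised library total. At these depths 3 counts, taken as the limit that a count of 0 allows, stood for 0.069 to 0.172 CPM in WT lung, which covers counting error only. Over the 10 pairs of WT lung libraries, Pearson's r of log2 CPM across genes was 0.9885 to 0.9958. One WT lung library, that of mouse 3793543, carried liver transcripts. Its Alb count, for the plasma protein albumin, was 1244 reads, against 54 to 105 reads in the other 4 WT lung libraries and 44 to 102 in the 5 KO lung libraries. The 8 hepatocyte genes together stood at 49.5 CPM in that library and at 2.88 to 7.89 CPM in the other 4, and their part in other results was not tested beyond leaving the library out. Cdh15 itself had 0 reads in all 5 KO lung libraries and 2, 0, 0, 1 and 1 in WT lung, so in lung it gives no check of the genotype labels. In EDL, a muscle, Cdh15 had 48 to 72 reads in KO and 329 to 521 reads in WT libraries.

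Lung differed from the mean of the other tissues in most of the transcriptome. Of 16842 genes tested with edgeR's quasi-likelihood test, 13723 passed an adjusted p of 0.05, which is 81.5%. Of all tested genes, 43% were called higher in WT lung (7236 genes) and 38.5% lower (6487 genes). A 2-fold difference or more on top of the call was held by 4690 genes in the higher direction (27.8%) and 2815 in the lower (16.7%). The median log2 fold change of all tested genes was 0.004. This balance rests on the composition-adjusted (TMM) scaling: with plain library totals the median of all genes moved to 1.18, and 13164 genes were called higher and 1729 lower. Directions below are relative to the TMM scaling, and lower calls that flip under library totals are marked. Where a tissue held no read of a gene, the fitted mean difference has no finite true value. Single genes are therefore described mainly by their smallest difference from any of the 8 tissues. For a gene with no read in any other tissue, that difference has no finite true value either. Where a second list median is given, every tissue mean was raised to the level of 3 counts. Medians given once, and those against a single tissue, are fitted values without this limit.

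A stricter rule asked for a log2 fold change of at least 1 and an adjusted p under 0.05 against each of the 8 tissues separately. By it 1100 genes, 6.53% of those tested, were higher in WT lung than in each other WT tissue, and 94 genes, 0.558%, were lower than in each. Of the 1100 genes, 1040 were protein-coding and 948 reached 1 CPM in WT lung. Their fitted margin over the next tissue was 4-fold or more for 628 genes and 16-fold or more for 277. It was 64-fold or more for 108 genes and 256-fold or more for 24. The next tissue was heart for 302 genes (27.5%), kidney for 295 (26.8%), spleen for 217 (19.7%) and EDL for 98 (8.91%). Only 151 of the 1100 genes belonged to any of the 42 lists described below.

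Among genes at 1 CPM or more in WT lung, the 12 with the largest margins over every other tissue included 4 surfactant protein genes and the club cell gene Scgb1a1. The surfactant protein C gene Sftpc (chr14:70520942-70524081, minus strand, 6 exons, mm10), a marker of type 2 cells, stood at 5355, 5434, 5177, 5868 and 6616 CPM in the WT lungs of mice 3793543, 3793553, 3805657, 3805673 and 3817948, an order kept below. In the 38 other WT libraries it was 0 at the lowest, 0.0345 at the median and 2.96 CPM at the highest. No library of another tissue came near the lowest lung library, and the smallest of the 8 log2 fold changes, against kidney, was 12.34. The edgeR adjusted p of the comparison with the mean of 8 tissues was 7.11e-33. Scgb1a1 (chr19:9083642-9087956, minus strand, 3 exons), the main secreted protein of club cells, had 13970, 14750, 14500, 17300 and 13710 CPM in WT lung. The other libraries ranged from 0 to 64 CPM with a median of 0.0776. The highest of them was a heart: Scgb1a1 had 1120 reads in the WT heart of mouse 3817948 and 12 to 107 in the other 4 WT hearts. Scgb1a1 took 2.82 to 3.55% of all counts in WT lung. Per exon length (RPKM) it was the most abundant gene of WT lung at 72930 ± 6723 RPKM, ahead of Sftpc at 15380 ± 1465 RPKM (SD, n = 5).

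Beside these 2 genes, the first 12 by fitted margin were Sftpb, Cxcl15, Sftpd, E030019B13Rik, Cldn18, Sftpa1, Fam92b, Wfdc8, Chil1 and Slc6a14. Cxcl15, a chemokine also called lungkine, had 646 to 785 CPM in WT lung and at most 0.631 CPM in any other WT library. Sftpd, a collectin that binds microbial sugars, had 588 to 872 CPM against at most 1.49. E030019B13Rik, a long non-coding RNA that RefSeq names Sfta3-ps, lies next to Nkx2-1 (chr12:56490428-56529420, minus strand, 7 exons, mm10) and had 47.1 to 53.2 CPM against at most 0.126. For all 3 genes the lowest lung library was far above every other library. Cldn18, a tight junction protein of type 1 cells, had 333 to 400 CPM against at most 0.828. Chil1, a chitinase-like secreted protein, had 453 to 1056 CPM against at most 2.11. Slc6a14, an amino acid transporter, had 53.1 to 72.9 CPM against at most 0.183. Fam92b, a gene of a BAR-domain protein, and Wfdc8, of the WAP four-disulfide core family, had no read in any of the 38 other libraries. Their levels in WT lung were 3.24 to 5.38 and 2.96 to 5.52 CPM. Taking 3 counts per library as the limit in EDL, lung was at least 22.8-fold and 22.3-fold higher than EDL. That limit was looser in tibialis, at 0.207 to 0.437 CPM, than in EDL, at 0.152 to 0.215 CPM. The bound over every tissue is therefore lower, and the place of Fam92b and Wfdc8 among the 12 rests on fitted values.

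**Figure D1:**
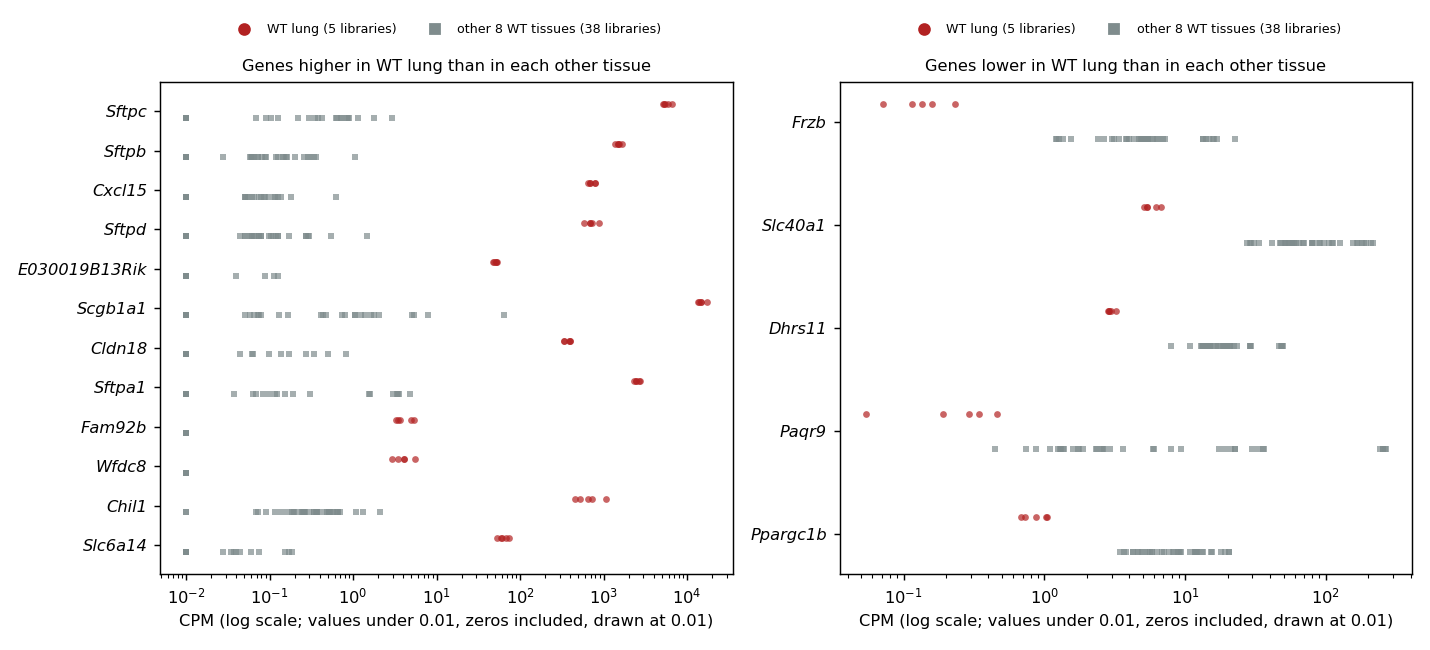
Levels of the 12 genes with the largest margin above each other tissue (left) and the 5 with the largest margin below each (right) in every WT library, in CPM on a log axis, with red circles for the 5 WT lung libraries and grey squares for the 38 libraries of the other 8 WT tissues. Values under 0.01 CPM, zeros included, are drawn at 0.01; Sftpc is at 5177 to 6616 CPM in lung and at most 2.96 CPM elsewhere, and Slc40a1 at 5.12 to 6.76 CPM in lung and at least 27.4 CPM elsewhere.

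All 21 genes of the alveolar type 2 list were called higher in WT lung, with a median log2 fold change of 7.36 (7.37 with the 3-count limit), and 15 of them were above each other tissue. The exceptions lay in other epithelia: 3 of the 21 were lower in lung than in kidney and 2 lower than in liver. Sftpb (chr6:72304610-72314373, plus strand, 12 exons), whose product organises the surfactant film, had 1551, 1381, 1509, 1504 and 1649 CPM in WT lung, and 0, 0.0638 and 1.06 CPM as the lowest, median and highest of the other libraries. Sftpa1, a surfactant collectin, had 2477, 2752, 2429, 2325 and 2639 CPM in lung against a median of 0 and a maximum of 4.79 CPM. The highest values of Sftpa1 outside lung were all in liver, at 3.01 to 4.79 CPM. Slc34a2, a phosphate transporter of type 2 cells, had 1003 ± 67 CPM in WT lung and 3.57 ± 2.27 in liver, the next tissue (SD, n = 5 each). Lamp3, a lamellar body membrane protein named here after its values were seen, had 314 ± 39.5 CPM against 0.897 ± 0.287 in spleen (SD, n = 5 and 4).

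Upstream sequence of 3 of these genes is shown because NKX2-1 and forkhead factors are textbook regulators of surfactant genes. The sequences are the 250 bases before the gene start in RefSeq, build GRCm38.p6 (mm10), read 5′ to 3′ on the gene's strand: chr6:72304360-72304609 (plus strand) for Sftpb, chr14:41131538-41131787 (plus strand) for Sftpa1 and chr16:19706366-19706615 (minus strand) for Lamp3. Capitals mark the core CTCAAG of NKX2-1 sites in Sftpb and Sftpa1 and the forkhead motif TGTTTAC in Lamp3.
Sftpb: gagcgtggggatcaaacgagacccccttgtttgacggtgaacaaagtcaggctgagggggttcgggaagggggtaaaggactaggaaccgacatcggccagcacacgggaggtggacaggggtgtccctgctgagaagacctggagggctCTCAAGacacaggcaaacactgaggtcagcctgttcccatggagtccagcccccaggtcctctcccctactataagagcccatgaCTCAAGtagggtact
Sftpa1: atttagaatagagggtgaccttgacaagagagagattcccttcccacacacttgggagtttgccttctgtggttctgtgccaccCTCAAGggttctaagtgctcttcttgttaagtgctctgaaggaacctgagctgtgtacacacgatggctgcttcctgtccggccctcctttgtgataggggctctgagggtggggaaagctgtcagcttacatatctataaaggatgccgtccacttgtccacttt
Lamp3: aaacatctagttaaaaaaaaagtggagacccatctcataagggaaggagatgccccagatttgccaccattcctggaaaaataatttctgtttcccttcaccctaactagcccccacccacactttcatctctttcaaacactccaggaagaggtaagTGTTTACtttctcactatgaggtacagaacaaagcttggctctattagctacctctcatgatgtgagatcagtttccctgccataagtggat
CTCAAG begins 100 and 15 bases before the start of Sftpb and 166 bases before that of Sftpa1, and TGTTTAC 92 bases before that of Lamp3. Searched on both strands, CTCAAG was in 2 of the 19 upstream windows of the type 2 list (10.5%), in 12.1% of the 926 windows of genes above each tissue and in 13.3% of all 32851 windows of the table. TGTTTAC was in 4 of the 19 type 2 windows (21.1%), in 3.02% of the windows of genes above each tissue and in 3.17% of all windows. The table held windows for 16 of the 21 type 2 genes and for 770 of the 1100 genes above each tissue. These motifs are letters found in a window, with no binding measured.

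Of the alveolar type 1 genes, 18 of 18 were called higher, with a median of 7.20 (6.90 with the 3-count limit), and 14 were above each tissue. Ager (chr17:34597850-34600937, plus strand, 10 exons), the receptor for advanced glycation end products and the classic type 1 marker, had 829, 839, 829, 875 and 936 CPM in WT lung. Its other libraries ran from 0 through a median of 0.499 to 3.92 CPM, with spleen the next tissue at 3.48 ± 0.314 (SD, n = 4). Aqp5, a water channel, had 79.1 to 98.0 CPM in lung and at most 0.972 elsewhere. Sec14l3, a lipid-binding protein, had 1066 to 1221 CPM in lung and 19.8 to 31.1 in kidney, the next tissue. Neither gene overlapped between lung and any other tissue. The epithelial sodium channel subunit Scnn1g was less exclusive, at 88.9 ± 3.24 CPM in lung and 11.5 ± 1.04 in kidney (SD, n = 5 and 4).

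Airway secretory genes had a higher median still, but several were also found in liver or in some heart libraries. All 16 club and secretory genes were called higher, with a median of 10.02 (7.97 with the 3-count limit), and 9 were above each tissue. Scgb3a2, a secretoglobin, had 281 to 444 CPM in WT lung, a median of 0 and a maximum of 13 CPM elsewhere. The mucin gene Muc5b had 126 to 276 CPM in lung and at most 13.1 elsewhere. Bpifa1, an antimicrobial protein of airway fluid, had 139 to 220 CPM in lung, no read in any library of liver, spleen or muscle, and 125 CPM in 1 heart. The maxima of all 3 genes were in WT hearts, and Bpifa1 did not pass against heart (log2 fold change 2.72, edgeR adjusted p = 0.0717). Without the WT heart of mouse 3817948, 1120 genes were above each tissue. In KO mice more than a single heart carried airway transcripts. Scgb1a1 had 1844, 735 and 282 reads in the KO hearts of mice 3779417, 3793546 and 3817943. It had 36 and 12 reads in those of mice 3805666 and 3805676. Bpifa1 had a median of 18.92 CPM and a maximum of 154.4 CPM over the KO hearts. Cyp2f2, a cytochrome that activates inhaled toxicants in club cells, had 1522, 1583, 1475, 2064 and 1438 CPM in lung and 1664 ± 223 in liver (SD, n = 5), levels that overlapped. Genes of airway host defence overlap these lists in part: 17 of 17 were called higher, with a median of 9.68 (7.13 with the limit), and 13 were above each tissue.

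Of the 42 lists, that of ciliated cells had the largest share of members above each tissue. All 21 were called higher, with a median of 8.04 (5.84 with the 3-count limit), and 20 of 21 were above each other tissue, where 6.53% of all genes were. Foxj1 (chr11:116330704-116335354, minus strand, 3 exons), the transcription factor that switches on motile cilium genes, had 56.4, 68.8, 56.5, 64.3 and 60.4 CPM in WT lung. The other libraries had 0, 0.0507 and 1.03 CPM as lowest, median and highest. The axonemal dynein chains Dnah5 and Dnah9 had 38.5 to 46.1 and 24.4 to 30.6 CPM in lung, and at most 1.14 and 0.743 CPM elsewhere. Ccdc153, a coiled-coil protein, had 35.1 to 41.1 CPM in lung against at most 1.31. For each of these 4 genes the groups were separated without overlap. The list's exception, Tekt1, a filament protein of ciliary microtubules, did not meet the rule against each tissue.

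RFX factors bind X-box elements upstream of cilium genes, and the 7-letter motif GTTGCCA (reverse complement TGGCAAC) was in 5 of the 20 upstream windows of the ciliated list (25%), those of Ccno, Drc1, Hydin, Mcidas and Tekt1. It was in 6.80% of the windows of genes above each tissue and in 3.66% of all windows. Of the other lists searched, the endothelial list held it in 1 of 16 windows (6.25%). It was in none of the windows of the type 1, type 2, club and pan-leukocyte lists. The 250 bases upstream of Hydin and Ccno, picked after the search because their RefSeq and deposited starts coincide, show the motif in capitals. They are chr8:110266727-110266976 (plus strand) for Hydin, a central-pair protein of cilia, and chr13:112987552-112987801 (plus strand) for Ccno, a cyclin-like protein of multiciliated cells.
Hydin: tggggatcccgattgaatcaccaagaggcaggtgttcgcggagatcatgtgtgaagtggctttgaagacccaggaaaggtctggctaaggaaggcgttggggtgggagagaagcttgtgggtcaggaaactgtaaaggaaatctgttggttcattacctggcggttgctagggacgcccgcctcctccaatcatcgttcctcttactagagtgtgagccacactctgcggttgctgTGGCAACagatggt
Ccno: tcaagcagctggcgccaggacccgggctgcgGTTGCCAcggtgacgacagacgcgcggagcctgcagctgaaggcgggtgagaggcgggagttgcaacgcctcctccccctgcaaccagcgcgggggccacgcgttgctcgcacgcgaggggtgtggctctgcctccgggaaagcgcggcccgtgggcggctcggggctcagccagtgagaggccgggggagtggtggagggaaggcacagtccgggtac
The motif begins 14 bases before the start of Hydin, on the opposite strand, and 219 bases before that of Ccno. Hydin had 29.7 ± 3.01 CPM in WT lung and 0.519 ± 0.408 in heart, the next tissue (SD, n = 5 each). Ccno was much lower, at 1.46 ± 0.211 CPM in lung and 0.499 ± 0.222 in kidney (SD, n = 5 and 4). The NKX2-1 core CTCAAG was in 6 of the 20 ciliated windows (30%) and in 4 of 12 club windows (33.3%). It was in 3 of 19 type 1 windows (15.8%), 1 of 16 endothelial windows (6.25%) and 1 of 17 pan-leukocyte windows (5.88%).

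Rarer airway cells left weaker or no clear traces. Of 7 tested neuroendocrine genes 6 were called higher and 4 were above each tissue. Calca, which encodes the peptide CGRP, had 1.02 to 1.57 CPM in WT lung against at most 0.287 in any other library, low but without overlap. Of 4 tested basal cell genes, 2 were called higher and 2 lower, shares near the 43% and 38.5% of all tested genes. The keratins Krt15 and Krt5 were higher than the mean of the tissues, but Krt5 had 0.345 to 0.661 CPM in lung and 0.893 to 1.40 in kidney. Trp63, a basal cell factor, fell by 1.95 on the log2 scale, with 0.581 ± 0.187 CPM in lung and 21.2 ± 4.12 in gastrocnemius (SD, n = 5 each), and Ngfr, a neurotrophin receptor, fell by 1.81. The call for Trp63 was lost when the 4 skeletal muscles were averaged to 1 tissue.

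Genes common to epithelia separated lung from muscle, heart and spleen but not from kidney. All 22 general epithelial genes were called higher than the mean of 8 tissues, with a median of 6.36 (5.40 with the 3-count limit), and only 4 were above each tissue. Against kidney, 14 were higher and 6 lower, with a median log2 fold change of 0.65 beside -0.04 for all genes; 37.3% of all genes were called higher than kidney and 40.9% lower. Epcam, an epithelial adhesion molecule, had 32.6, 36.2, 35.6, 33.5 and 32.2 CPM in WT lung, against 0, 0.0599 and 57.1 CPM as the lowest, median and highest of the other libraries. All 4 kidney libraries were above every lung library, and spleen was next at 3.98 ± 0.485 CPM (SD, n = 4). Cdh1, which encodes E-cadherin, had 173, 192, 188, 181 and 188 CPM in lung and 109 ± 6.75 in kidney (SD, n = 4), with no overlap and a log2 fold change of 0.75 against kidney. Cldn7, a tight junction protein, passed against each tissue, at 25.3 ± 1.87 CPM in lung against 7.13 ± 0.708 in kidney. Prss8, a membrane protease that activates sodium channels, was lower in lung than in kidney, at 35.5 ± 2.46 and 155 ± 8.76 CPM (SD, n = 5 lungs and 4 kidneys throughout).

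Of 20 lung transcription factors 19 were called higher and 8 were above each tissue, with a median of 5.04 (4.27 with the 3-count limit). Nkx2-1 (chr12:56531935-56535106, minus strand, 2 exons), the master regulator of lung epithelium, had 95.4, 81.1, 91.0, 84.3 and 93.8 CPM in WT lung. The other libraries had 0.069, 0.487 and 3.34 CPM as lowest, median and highest, and the smallest log2 fold change, against spleen, was 6.15. Nkx2-1 carried fractional counts in 87 libraries, so part of its reads was shared out by the authors' counting. Foxa1 and Foxa2, forkhead factors of endodermal organs, had 22.8 to 24.4 and 17.1 to 20.8 CPM in lung and 12.3 to 18.4 and 22.0 to 35.7 CPM in liver. So Foxa1 was higher in every lung than in every liver library, and Foxa2 lower. Elf5, an epithelial ETS factor, had 14.8 ± 0.943 CPM in lung and 3.71 ± 0.397 in kidney (SD, n = 5 and 4). Sox2, a factor of conducting airways, had 11.4 to 15.4 CPM in lung against at most 0.572 elsewhere. Sox9, a factor of the fetal lung tip that is low in adult lung, was the exception: it fell by 2.94 on the log2 scale, at 0.370 ± 0.126 CPM in lung and 8.12 ± 2.05 in liver (SD, n = 5 each).

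Transport, detoxification and lipid genes were mostly higher in lung. Of 16 ion and fluid transport genes 13 were called higher, 1 lower and 9 above each tissue, and all 18 tested xenobiotic enzyme genes were called higher than the mean of tissues. Against liver, only 7 of the 18 enzymes were higher and 8 lower, where 43.6% of all genes were called higher and 40.1% lower. Cyp2b10, a cytochrome, had 162 to 200 CPM in WT lung and 2.26 to 23.6 in liver, and Cyp2s1 had 71.5 to 83.2 against at most 7.97 elsewhere. Neither overlapped between lung and the other tissues. Of 16 surfactant lipid genes, 13 were called higher and 2 lower, and 4 were above each tissue. Lpcat1, which makes the dipalmitoyl lipid of surfactant, had 83.4 ± 10.4 CPM in lung and 18.9 ± 2.60 in spleen (SD, n = 5 and 4). Pla2g1b, a secreted phospholipase, had 2.97 to 3.64 CPM in lung and at most 0.158 elsewhere. The lower genes were Lpin1, a phosphatidate phosphatase abundant in muscle, at -3.25, and Pcyt1a, the rate-setting enzyme of phosphatidylcholine synthesis, at -0.87, which with library totals turned to 0.31.

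Endothelial genes were higher in lung by smaller factors, and heart was the closest tissue. All 22 pan-endothelial genes were called higher than the mean of tissues, with a median log2 fold change of 2.23 (2.25 with the 3-count limit), and 8 were above each tissue. Against heart, 13 were higher and 4 lower, with a median of 0.50 beside 0.08 for all genes, of which 40.4% were called higher and 36.0% lower. Pecam1 (chr11:106654213-106715281, minus strand, 15 exons), the junctional protein CD31, had 427, 410, 412, 414 and 396 CPM in WT lung, against 20.9, 74.7 and 218 CPM as lowest, median and highest of the other libraries. By tissue its mean was 202 ± 12.4 CPM in heart and 125 ± 8.62 in spleen, 93.9 ± 23.7 in soleus and 24.1 ± 2.23 in liver, the lowest (SD, n = 5, spleen 4). No library of another tissue reached the lowest lung, and the log2 fold change over heart was 1.02 (edgeR adjusted p = 4.50e-09). Cdh5, the gene of VE-cadherin, had 387, 280, 358, 312 and 348 CPM in lung and 217 to 262 CPM in heart. Its groups did not overlap either, but its log2 fold change over heart, 0.49, was below the 2-fold rule. Ramp2, Cldn5 and Tek, a receptor-modifying protein, a tight junction protein and an angiopoietin receptor, had 112 ± 10.5, 119 ± 15.4 and 215 ± 6.43 CPM in lung. In heart, the next tissue, they had 26.8 ± 1.23, 25 ± 5.50 and 79.8 ± 4.91 CPM (SD, n = 5 each).

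The capillary subtypes were both represented. Of 12 general capillary genes 11 were called higher, 1 lower and 6 above each tissue; all 12 aerocyte genes were called higher and 4 were above each tissue. Fendrr, a non-coding RNA of lung mesenchyme and endothelium counted in the aerocyte list, had 89.7 to 112 CPM in WT lung and at most 3.33 elsewhere. Car4, the carbonic anhydrase of aerocytes, had 80.1, 91.2, 74.6, 75.4 and 88.4 CPM in lung and 74.1 to 87.1 CPM in kidney, so these 2 tissues overlapped (log2 fold change 0.04, edgeR adjusted p = 0.836). Ednrb, an endothelin receptor of aerocytes, had 87.5, 63.7, 79.4, 75.9 and 82.0 CPM in lung and 42.7 to 58.1 in kidney, the next tissue, without overlap. Among general capillary genes, Kit, a growth factor receptor, had 76.9 to 85.2 CPM in lung and 23.5 to 27.1 in spleen, and Hpgd, which degrades prostaglandins, had 272 to 384 CPM in lung and 81.6 to 104 in liver. Cxcl12, a chemokine of many stromal cells, was the lower member at -1.05, with 59.9 ± 5.99 CPM in lung and 518 ± 73.6 in liver (SD, n = 5 each), and it turned to 0.14 with library totals. Tbx2, a factor of the aerocyte list, and Hey1, an arterial Notch target, were also above each tissue, at 74.6 ± 14.6 and 30.5 ± 4.35 CPM in lung against 36.6 ± 2.62 in kidney and 8.22 ± 0.564 in heart (SD, n = 5, kidney 4). Large-vessel genes were called higher in 11 of 12 cases, among them Vwf, von Willebrand factor, at 262 ± 31.1 CPM in lung and 84.1 ± 10.1 in heart, and Slc6a2, the noradrenaline transporter, at 42.7 to 55.7 CPM in lung and at most 4.36 elsewhere. Of 8 lymphatic genes, 6 were called higher and 1 lower, where 43% and 38.5% of all tested genes were. The list shares Lyve1 with the general capillary list and Pdpn with the type 1 list. Lyve1, a hyaluronan receptor, had 124 to 198 CPM in lung and at most 32.6 elsewhere, while Prox1, the defining lymphatic factor, fell by 2.57 on the log2 scale, with 0.972 ± 0.122 CPM in lung and 74.9 ± 9.82 in liver (SD, n = 5 each).

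Most of the listed genes that act on vessel tone were higher in lung than in the mean of tissues. Of 18 tested vasoactive genes 14 were called higher, 2 lower and 5 above each tissue. Over all tested genes these shares were 43%, 38.5% and 6.53%. Against heart 11 were higher and 4 lower, where 40.4% and 36.0% of all genes were. Against kidney 13 were higher and 3 lower, where 37.3% and 40.9% of all genes were. Calcrl, the receptor partner of Ramp2 for adrenomedullin and CGRP, had 716, 758, 535, 609 and 647 CPM in WT lung, against 11.5, 20.7 and 35.1 CPM as lowest, median and highest elsewhere. Its smallest log2 fold change, against spleen, was 4.32, while the pan-endothelial list had a median of 2.49 against spleen. Ace, the angiotensin-converting enzyme, had 365 to 443 CPM in lung and 191 to 213 in kidney, the next tissue. The lower genes were Agtr1a, an angiotensin receptor, at -0.66, and Vipr1, a receptor for vasoactive intestinal peptide, at -0.55; both turned positive with library totals, at 0.52 and 0.63.

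**Figure D2:**
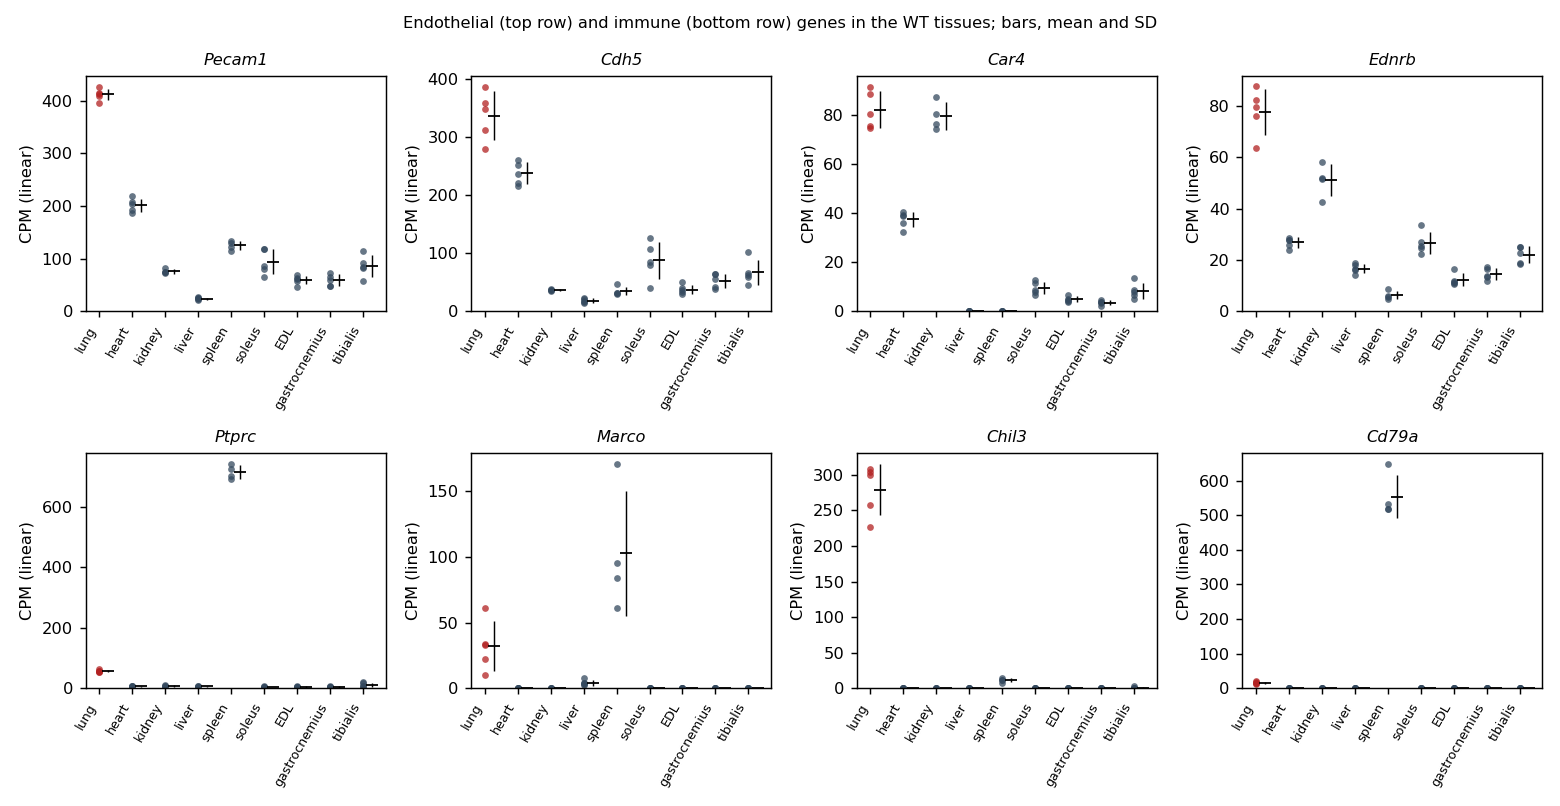
CPM (linear axes) of 4 endothelial genes (top row) and 4 immune genes (bottom row) in each WT library by tissue, with lung at the left in red, the other tissues in dark blue, and black bars for the mean and SD. Pecam1 in lung (396 to 427 CPM) lies above heart (186 to 218 CPM), Car4 overlaps with kidney, and Ptprc in lung (53.4 to 63.9 CPM) lies far below spleen (691 to 742 CPM).

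Most stromal genes were higher in lung, and a few widely expressed ones were lower. Of 20 fibroblast genes 15 were called higher, 3 lower and 9 above each tissue, where 43%, 38.5% and 6.53% of all tested genes were. Inmt, a methyltransferase of alveolar fibroblasts in mouse, had 592 to 826 CPM in WT lung and 326 to 422 in kidney, the next tissue. Itga8, an integrin of alveolar fibroblasts and myofibroblasts, had 121 to 159 CPM in lung and 24.3 to 31.5 in heart. Mfap4, an elastic fibre protein, had 131 to 211 CPM in lung and at most 38.7 elsewhere. Tcf21, a mesenchymal factor of lung and spleen development, had 17.0 to 35.0 CPM in lung and 28.8 to 30.4 in spleen, which overlapped. The proteoglycan gene Dcn fell by 1.48 on the log2 scale, at 131 ± 13.1 CPM in lung and 1383 ± 135 in EDL (SD, n = 5 each). Among elastic matrix genes, 11 of 12 were called higher, and elastin itself, Eln, had 145 to 221 CPM in lung and 67.7 to 102 in heart. Fbln2, a basement membrane protein, was the lower member at -1.37; its call was lost with library totals.

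Smooth muscle and pericyte genes were called higher in 14 of 16 cases, 8 of them above each tissue. Over all tested genes 43% were called higher and 6.53% were above each tissue. Hhip, a hedgehog-binding protein of airway muscle and myofibroblasts, had 26.6 to 33.2 CPM in WT lung and at most 3.13 elsewhere, and Cnn1, a contractile protein of smooth muscle, 36.0 to 39.3 against at most 16.2. Higd1b, a pericyte gene of lung, had 9.24 to 13.3 CPM in lung against at most 4.65. Rgs5, the usual pericyte marker of other organs, went the other way: 3.54, 2.29, 2.34, 2.49 and 2.43 CPM in lung, against 1.04, 107 and 272 CPM as lowest, median and highest elsewhere, a log2 fold change of -4.20. Des, the muscle filament desmin, was the other lower member at -2.13. Mesothelial genes of the pleura were called higher in 7 of 7 cases, with a median of 5.86 (4.57 with the 3-count limit) and 6 above each tissue. Upk1b and Upk3b, uroplakins of mesothelium, had 24.6 to 28.5 and 12.3 to 35.5 CPM in lung, and 1.37 to 3.55 and 4.12 to 9.85 CPM in heart, the next tissue for both.

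Leukocyte genes were lower in lung than in spleen and, with 1 exception in liver, higher than in the other tissues. All 16 pan-leukocyte genes were called higher than the mean of tissues, with a median of 1.86, and none was above each tissue. All 16 were lower than in spleen, with a median log2 fold change of -3.17 beside -0.10 for all genes, of which 43.2% were called lower than spleen. All 16 were higher than in heart and in kidney, and 15 than in liver. Ptprc (chr1:138062859-138175305, minus strand, 30 exons), the leukocyte antigen CD45, had 56.3, 63.9, 53.4, 55.6 and 59.1 CPM in WT lung and 716 ± 22.8 in spleen (SD, n = 4). The next tissue after lung was tibialis at 11.2 ± 8.09 CPM (SD, n = 5). The 34 libraries outside spleen all lay below the lowest lung library.

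Lymphocyte genes showed the same order. All 12 B and plasma cell genes were called higher than the mean of tissues and lower than spleen, with medians of 3.60 and -5.03. Cd79a, part of the B cell receptor, had 21.1, 14.7, 18.0, 12.9 and 15.8 CPM in WT lung and 554 ± 63.0 in spleen (SD, n = 4), while the 34 libraries outside spleen all stayed below the lowest lung. Ms4a1, the antigen CD20, had 7.30 to 11.8 CPM in lung and 258 to 338 in spleen. Of 18 T and NK cell genes 17 were called higher than the mean and 17 lower than spleen. Cd3e, part of the T cell receptor complex, had 1.72, 1.62, 0.915, 1.64 and 1.44 CPM in lung and 41.6 to 82.3 in spleen. Gzma, a granzyme of NK cells, was nearer to spleen, at 6.25 to 11.2 CPM in lung and 16.5 to 26.2 in spleen. All 9 MHC class II genes were called higher than the mean and lower than spleen. Of 13 dendritic cell genes 12 were called higher, 10 were lower than spleen and 1 was above each tissue. That gene, Ccl17, a chemokine of migratory dendritic cells, had 1.66 to 6.10 CPM in lung and at most 1.46 elsewhere.

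Of 20 alveolar macrophage genes 18 were called higher and 2 lower, with a median of 5.01 (3.73 with the 3-count limit), and 7 were above each tissue. Against spleen 13 were higher and 5 lower, where 36.4% of all genes were higher. Chil3, a chitinase-like protein of alveolar macrophages, had 226, 304, 258, 300 and 308 CPM in WT lung, against 0, 0.185 and 14 CPM as lowest, median and highest elsewhere, with no overlap. Ear1, an eosinophil-associated ribonuclease, had 11 to 18.5 CPM in lung and at most 0.904 elsewhere; near-identical family members make the counting of Ear genes uncertain. Krt79, a keratin, had 10.8 to 16.6 CPM against at most 0.450. Marco, a scavenger receptor, varied more: 22.5, 61.2, 34.1, 10.2 and 33.4 CPM in lung and 61.0 to 171 in spleen, where splenic macrophages also carry it. The lower members were Fabp4, a fatty acid carrier of macrophages, capillaries and fat, at -2.25, and Slc7a2, an arginine transporter, at -1.005, which turned to 0.18 with library totals and lost its call with the 4 skeletal muscles averaged. Monocyte genes were called higher in 10 of 12 cases and lower in 1, and against spleen 2 were higher and 8 lower. The lower one, Eno3, is also the muscle enolase: it had 6.31 to 8.78 CPM in lung and 4670 ± 352 in tibialis (SD, n = 5). Of 15 genes of other macrophages 6 were called higher and 5 lower, with a median of -0.29, shares near the 43% and 38.5% of all tested genes.

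Among granulocytes, 11 of 15 tested neutrophil genes were called higher than the mean of tissues, 9 were lower than spleen and 1 was above each tissue. S100a8, a calprotectin subunit, had 30.9, 30.9, 29.4, 13.5 and 16.2 CPM in WT lung and 23.3 ± 8.64 in spleen (SD, n = 4), which overlapped (log2 fold change 0.02, edgeR adjusted p = 0.969). Ltf, lactoferrin, which airway glands secrete as well, was the gene above each tissue, at 24.1 to 48.0 CPM in lung and at most 16.2 elsewhere. Of 7 tested mast cell and basophil genes, 2 were called higher and 1 lower, where 43% and 38.5% of all tested genes were. The higher genes, both above each tissue, were Hdc, the histamine-making enzyme, at 41.4 to 47.0 CPM in lung and at most 4.15 elsewhere, and Gata2, a factor also of endothelium, at 43.5 to 55.7 CPM against at most 17.8. The mast cell tryptase Tpsb2, however, had 0.046 to 0.283 CPM in lung, against 4.52 ± 1.73 in tibialis (SD, n = 5), and its lower call was lost with library totals, with averaged muscles and without mouse 3793543. All 10 platelet and megakaryocyte genes were called higher than the mean and lower than spleen. Hbb-bt, a haemoglobin gene of red cells, had 197 to 247 CPM in lung and 336 to 1482 in spleen. Of 10 erythroid genes 5 were called higher than the mean and 0 lower, where 43% and 38.5% of all tested genes were. Against spleen 9 were lower, where 43.2% of all genes were. The near-identical Hba-a1 and Hba-a2 cannot be counted apart, with Hba-a1 at 0 CPM in 1 lung and 1068 to 2430 in the other 4. Their higher calls were lost with averaged muscles, that of Hba-a1 also with DESeq2, with limma voom and without mouse 3817948, and that of Hba-a2 without mouse 3793553 or 3805657.

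Markers of cells from neighbouring or unrelated tissue were checked as well. Of 12 cardiomyocyte genes 10 were called higher in WT lung than in the mean of tissues and 1 lower, and all 12 were lower than in heart. Their summed level was 128 to 206 CPM in WT lung and 123 to 272 CPM in KO lung. Myl7, an atrial myosin light chain, had 7.94 to 14.6 CPM in WT lung, 52.5 to 136 in heart and a median of 0 elsewhere, whereas Myl2, the ventricular light chain, had 0.0572 to 0.536 CPM in lung and 5125 ± 338 in heart (SD, n = 5). So the atrial gene was present. The ventricular one was low, at 4, 19, 1, 20 and 5 reads, from near the 3-count limit to well above it. Skeletal muscle genes were at or near 0: Myh4, a fast myosin, had 0 reads in all 5 WT lungs, where 3 counts would be at most 0.172 CPM, against 132400 ± 10720 CPM in gastrocnemius (SD, n = 5). Of 10 skeletal muscle genes 6 were called lower and none higher. The edgeR contrast could not call Myh4, which also had no reads in other tissues, and limma voom, added after this was seen, gave -12.25 (adjusted p = 1.50e-12). Of 8 hepatocyte genes 4 were called higher in WT lung and 0 lower, against 1 higher and 2 lower in KO lung. Their summed level was 2.88 to 49.5 CPM in WT and 2.25 to 4.76 CPM in KO lung. The 49.5 CPM was in the WT lung of mouse 3793543, and the highest of the other WT lungs had 7.89 CPM. Leaving out that library turned the Alb difference negative (-0.93). Alb itself was not called in the reported fit, and the 4 genes called higher were not followed without that library. Because that library is part of the WT lung group, the higher calls are not read as a trait of lung or of genotype. Of 11 adipocyte genes 0 were called higher and 3 lower, and of 10 Schwann cell genes 2 higher and 5 lower. Of 7 tested cartilage genes 1 was called higher and 1 lower, and of 6 tested thymocyte genes 3 higher and 0 lower. Over all tested genes 43% were called higher and 38.5% lower, so counts near these shares do not mark a cell type. One of the Schwann genes, Prx, a protein of myelin and of lung capillaries, was above each tissue, at 104 to 136 CPM in lung and 25.3 to 57.9 in gastrocnemius, the next tissue. The 8 oesophagus genes did not pass the low-count filter, with 0.207 to 0.456 CPM in sum.

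**Figure D3:**
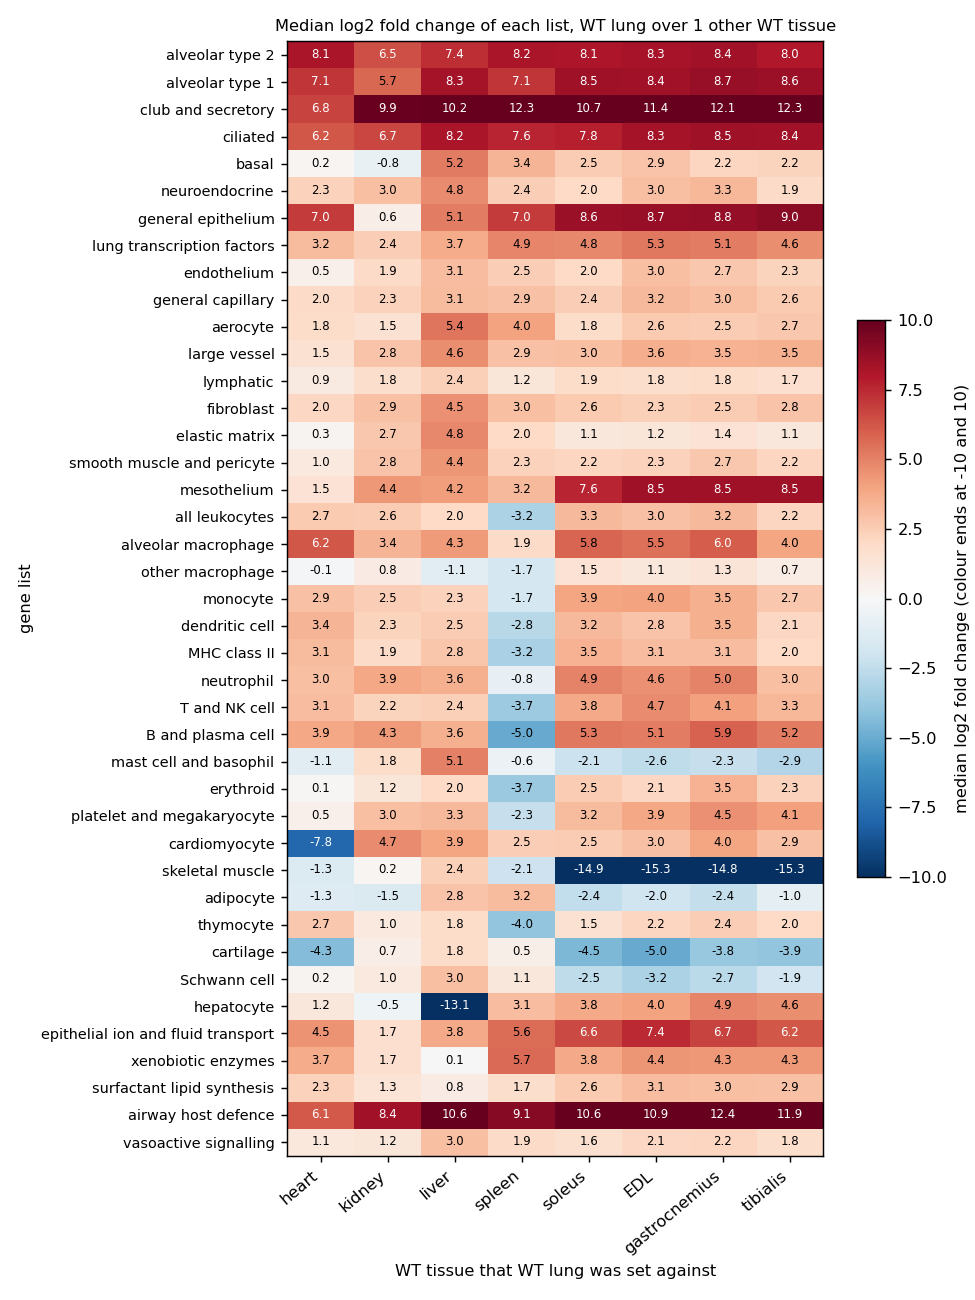
Median log2 fold change of each gene list for WT lung over each of the 8 other WT tissues, 1 tissue per column and 1 list per row, from blue (lower in lung) to red (higher in lung), with the colour ending at -10 and 10. The pan-leukocyte list is red in every column but spleen, where its median is -3.17, and the general epithelial list is closest to 0 against kidney, at 0.65.

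Of the 94 genes lower in lung than in each other tissue, the 5 with the largest margins at 1 CPM or more in each other tissue were Frzb, Slc40a1, Dhrs11, Paqr9 and Ppargc1b. Frzb, a secreted Wnt antagonist, had 0.230, 0.160, 0.114, 0.134 and 0.0709 CPM in WT lung, against 1.22, 5.11 and 22.6 CPM as the lowest, median and highest elsewhere. Its smallest difference, from liver, was -3.14 on the log2 scale, and its lung values are near the 3-count limit. Slc40a1 (chr1:45908070-45925594, minus strand, 8 exons), ferroportin, which exports iron from cells, had 6.76, 6.23, 5.32, 5.12 and 5.38 CPM in lung, against 27.4, 69.5 and 215 CPM elsewhere. It was highest in liver (178 ± 21.1 CPM, SD, n = 5) and spleen (172 ± 46.6, SD, n = 4), the organs of iron recycling, and its smallest difference, from kidney, was -2.39. Dhrs11, a short-chain dehydrogenase, had 2.83 to 3.25 CPM in lung and at least 7.88 elsewhere, and Ppargc1b, a coactivator of mitochondrial genes, 0.686 to 1.04 against at least 3.46. For these 4 genes every lung library was below every other library. Paqr9, a membrane receptor family gene, had 0.0536 to 0.460 CPM in lung and at least 0.448 elsewhere, with 1 library of another tissue inside the range of lung. With library totals in place of TMM factors 12 genes were lower than in each tissue.

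The KO mice repeated the lung pattern. Of 16710 genes tested in KO, 13634 (81.6%) were called, 7247 higher (43.4%) and 6387 lower (38.2%). Of the genes called higher, 6895 were shared, which is 95.3% of the WT list and 95.1% of the KO list. Of those called lower, 6126 were shared, 94.4% of the WT and 95.9% of the KO list, and 1 gene was called in opposite directions. KO lung was above each tissue in 1068 genes (6.39%), of which 1012 were shared, or 94.8% of the KO and 92.0% of the WT list. It was below each tissue in 98 genes (0.586%), with 71 shared, or 72.4% of the KO and 75.5% of the WT list. Of the first 12 genes by margin, 9 were the same in both genotypes. The list counts recurred: 21 of 21 type 2 genes, 18 of 18 type 1, 16 of 16 club, 21 of 21 ciliated, 22 of 22 endothelial and 16 of 16 pan-leukocyte genes were called higher in KO lung, and 15, 14, 10, 20, 8 and 0 of them were above each KO tissue. Sftpc had 4584, 5558, 5357, 5969 and 5469 CPM in KO lung, Scgb1a1 11240 to 17090, Pecam1 411 to 461 and Ptprc 46.3 to 71.4 CPM, ranges that overlap with those of WT lung for each of the 4 genes.

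The difference between the genotypes' lung contrasts was tested in 1 fit of all 88 libraries. Of 17151 genes, 0 passed an adjusted p of 0.05 with edgeR, 238 (1.39%) had an unadjusted p under 0.05, and the DESeq2 Wald test and limma voom each called 1 gene, Atp6v0c-ps2 and Chil4. Of the 5 genes with the smallest p, 4 had their highest level in liver. These are Masp2, a lectin pathway protease, at -2.38 (KO minus WT, log2), Mettl7b, a methyltransferase-like protein, at -2.73, Alb at -1.98 and Slc38a3, a glutamine transporter, at -1.85, each with an edgeR adjusted p of 1. Slc38a3 was not particular to liver, with a median of 101.4 CPM over the 38 other WT libraries and 806.4 to 1033 CPM in liver. The WT lung of mouse 3793543, with its liver transcripts, is among the libraries behind the values of these 4 genes. Its part was not tested gene by gene. Without it 0 genes passed as well.

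**Figure D4:**
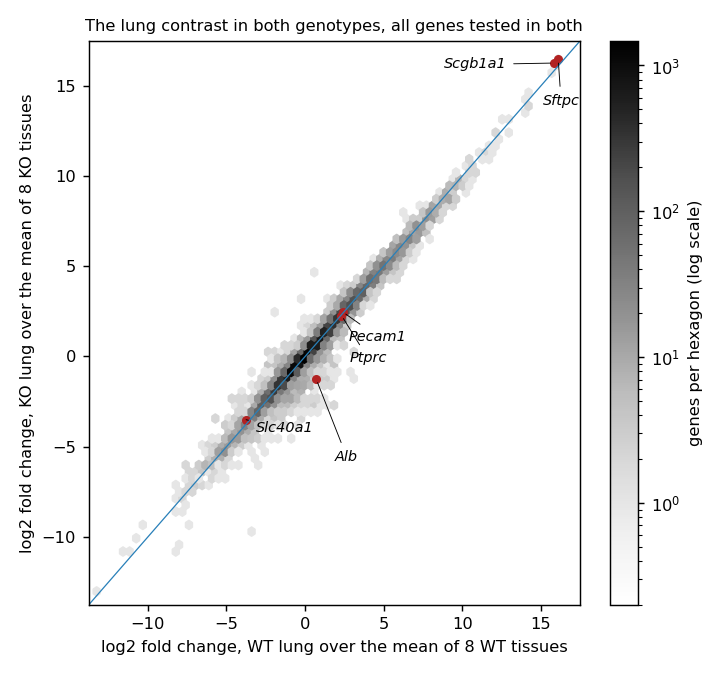
Log2 fold change of lung over the mean of the 8 other tissues in KO mice (vertical axis) against the same in WT mice (horizontal axis) for the 16639 genes tested in both, as counts per hexagon on a log scale, with the line of equality in blue and 6 genes named. Most hexagons follow the line, with Sftpc at 16.45 in KO and 16.09 in WT and Alb below it at -1.26 in KO and 0.71 in WT.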

How the data were processed

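Bulk RNA-seq of 9 tissues of 5 WT and 5 KO mice gave 88 libraries. WT kidney of mouse 3793543 and WT spleen of mouse 3805657 were not analysed here. Per the labels' protocols, RNA was extracted with MagMAX reagents and libraries were made with the KAPA stranded mRNA-seq kit. The authors deposited expected counts per gene, per the file values (85.55% of values are whole numbers and 8146 genes carry a fraction somewhere), on mm10 refGene and NCBI gene models, per the file headers. The authors also deposited RPKM values; recomputed from the counts and exon lengths, these gave ratios of 1.000000 to 1.000014 for genes with 200 counts or more. The aligner and counter are not given in the sources used here.

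Counts of 24453 genes were rounded to whole numbers; 22 rows for marker sequences (0 to 0.0323% of counts) were left out. Groups came from the sample titles and animals from the labels. edgeR 4.0.16 (R 4.3.3) quasi-likelihood F tests used TMM factors, filterByExpr (count minimum 10, total minimum 15) and 1 coefficient per group. The contrast was lung minus the mean of 8 tissues within a genotype, and the genotype difference was fitted over 88 libraries; adjusted p-values are Benjamini-Hochberg over all tested genes. The common biological coefficient of variation was 0.136 in WT and 0.126 in KO. CPM used TMM factors over all 88 libraries. DESeq2 1.42.0 and limma 3.58.1 (voom) were alternatives, and the edgeR code was checked on simulated data. Over 172 pairs of libraries of the same genotype and tissue, the smallest chi-square per gene was 5.35, so no library repeated another of its group. Pairs across groups were not compared. Figures and tables used Python 3.11.15 with numpy 2.4.6, pandas 2.3.3 and matplotlib 3.10.9.

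The same mouse gave all tissues, so the mouse pairs the samples. Deviations from group means correlated at 0.0734 on average over 38 same-mouse pairs of lung and another tissue in WT, with 12 pairs above 0.1. In KO the mean was 0.052 over 40 pairs, with 8 above 0.1. Pairs from different mice averaged -0.0184 over 152 pairs in WT, with 3 above 0.1. In KO they averaged -0.013 over 160 pairs, with 4 above 0.1. The main fit left the mouse out, and fits with the mouse as a replicate block are given below.

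The 42 gene lists (543 genes, 541 matched, by symbol or, where the file uses an older symbol, by Entrez ID) and the comparison were chosen with earlier results of these data known. Named genes were the 12 with the largest margin above each tissue, the 5 with the largest margin below each, 21 chosen marker genes, up to 4 genes of each list with the largest fold change and up to 2 against its direction, and the 5 of smallest p between genotypes; from the long lists only some are printed. Lamp3, Hydin, Ccno, Drc1, Mcidas, Tekt1, Atp6v0c-ps2 and Chil4 fall outside this rule and were chosen after their values or sequences were seen. Upstream sequences are RefSeq's, build GRCm38.p6, matched by symbol. Results of some genes are not reported here.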

Additional observations from a re-analysis of the deposited data

Results flagged for a closer look

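For the genes and lists described, the 5 lung libraries of a genotype were searched for a single library far from the other 4, by the gap to its nearest neighbour as a share of the whole range. Of 121 groups of 5 libraries examined, 10 were at or past the critical value of 0.710. At that value chance marks about 1 group in 20, if the values are normal and the groups independent. The values were CPM without a log, and the groups share libraries, so the 10 cannot be set against that rate.

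Airway and alveolar genes stood apart in the WT lung of mouse 3805673. Scgb1a1 was at 17300 CPM there and 13710 to 14750 in the other 4 WT lungs (gap share 0.710). Scgb3a2 was at 443.9 CPM against 281.3 to 326 (0.725), Cyp2f2 at 2064 against 1438 to 1583 (0.768), and Sec14l3 at 1221 against 1066 to 1090 (0.845). All 4 genes were high in that library, and the first 3 are club cell genes.

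The WT lung of mouse 3793543 stood apart for Alb, at 28.6 CPM against 1.44 to 5.15 in the other 4 (0.863). The summed hepatocyte list was at 49.5 CPM there against 2.88 to 7.89 (0.892), and Rgs5 at 3.54 CPM against 2.29 to 2.49 (0.838). In the WT lung of mouse 3793553, Sox2 was at 15.4 CPM against 11.4 to 12 (0.847), and Slc7a2 at 49.0 CPM against 35.3 to 38 (0.806). In KO, the summed cardiomyocyte list was at 272.3 CPM in the lung of mouse 3779417 against 122.9 to 154.4 in the other 4 (0.789). The causes were not tested.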

How the results depend on the processing

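Refits were kept for the 112 named genes whose contrast the text gives, so other named genes are not covered. Of 1678 refits of these 112 genes under 15 settings, 1652 kept the direction and the side of the threshold. With library totals, 13164 genes were called higher and 1729 lower in WT lung, 1921 were above each tissue and 12 below each. The same in KO lung gave 13021, 1732, 1847 and 16. The median log2 fold change of all genes was then 1.18 in WT and 1.17 in KO, against 0.110 and 0.108 with DESeq2 size factors. Library totals also turned Cxcl12 (0.14), Slc7a2 (0.18), Pcyt1a (0.31), Agtr1a (0.52) and Vipr1 (0.63) positive.

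Without spleen, which removes 1 condition of the rule, 1797 genes were above each remaining tissue and 757 below each in WT, and 1724 and 769 in KO. With the mouse as a replicate block, since each mouse gave all tissues, 13828 WT genes were called, 1106 were above each tissue and 93 below each. In KO these were 13710, 1067 and 96. The block changed no call of the 112 genes. The genotype difference had 0 genes under the replicate block and under every other setting except the DESeq2 Wald test and limma voom, with 1 gene each; unadjusted p-values under 0.05 numbered 192 to 392.

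Leaving out 1 mouse at a time gave 13359 to 13485 called genes in WT (7065 to 7216 higher, 6199 to 6338 lower), 1076 to 1114 above each tissue and 90 to 106 below each. In KO it gave 13217 to 13402 (7034 to 7157 higher, 6149 to 6269 lower), 1056 to 1077 and 86 to 104. Alb was not stable: 0.71 in the reported fit, 1.90 with library totals, -1.17 with muscles averaged, -0.20 with limma voom, and from -0.92 without mouse 3793543 to 1.11 without mouse 3805673. Leaving out only the WT lung of mouse 3793543, chosen after its liver transcripts were seen, gave -0.93 for Alb, with 1089 genes above each tissue and 92 below each. The causes were not tested. In lung, 3 counts stand for up to 0.172 CPM, so genes near that level, such as Frzb and Tpsb2, are limited by depth.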
